A study of Mus musculus with 12 samples.

Results

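Of the 23997 genes measured by RNA-seq in bone marrow-derived macrophages (BMDMs), 6 genes of the CXC chemokine family are described here: Cxcl1, Cxcl2, Cxcl3, Cxcl5, Cxcl16 and Pf4. They were taken by name, as the neutrophil-attracting members of the family and the other CXC chemokines beside them, from 15 CXC chemokine genes that were looked for. BMDMs are macrophages grown from marrow in culture, here from male C57BL/6 mice aged 8 to 10 weeks with recombinant human macrophage colony-stimulating factor at 10 ng/ml for 7 days. Wild-type (WT) and Pim1-/- cells were left untreated or received lipopolysaccharide (LPS), the bacterial ligand of TLR4, at 100 ng/ml for 4 h, which gives 4 groups of 3 libraries. Pim1 encodes a serine/threonine kinase, and the Pim1-/- mice were made with CRISPR/Cas9 by a deletion that spans exons I to V of the gene. The labels do not say whether the libraries of a group came from separate mice or cultures, so the p-values measure only the spread between these libraries.

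Chemokines are small secreted proteins that direct the movement of leukocytes, and the CXC family is named after the spacing of its first cysteines. Cxcl1, Cxcl2, Cxcl3 and Cxcl5 carry the ELR motif before these cysteines and attract neutrophils through the receptor Cxcr2, and macrophages that sense LPS through TLR4 are a known source of them. Cxcl16 is made as a membrane-bound ligand of Cxcr6 that the proteases Adam10 and Adam17 can release, and Pf4 (platelet factor 4, Cxcl4) is best known from platelet granules but is also transcribed in macrophages.

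All but one of these genes lie side by side on the plus strand of chromosome 5 (mouse build GRCm38, GENCODE M21). The order is Cxcl5 (90759360 to 90761624), Ppbp, Pf4 (90772435 to 90773383), Cxcl3 (90786103 to 90789600), Cxcl15, Cxcl1 (90891241 to 90893115) and Cxcl2 (90903871 to 90905938), within 146579 bases that hold 7 protein-coding genes. Cxcl16 lies on the minus strand of chromosome 11 (70453983 to 70459984). Cxcl1, Cxcl2, Cxcl3 and Cxcl5 have 4 exons in the annotated transcript used here, Cxcl16 has 5 and Pf4 has 3.

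Stretches of 120 bases ending just before the RefSeq transcription start of Cxcl1, Cxcl2 and Cxcl3 are shown because these genes moved together after LPS. They come from RefSeq promoter sequences (GRCm38.p6, plus strand), which were found for 4 of the 6 genes. They cover chr5:90891125-90891244, chr5:90903779-90903898 and chr5:90785981-90786100. The RefSeq starts differ from the GENCODE starts given above. For Cxcl1 (90891241) and Cxcl2 (90903871) the GENCODE start lies inside the stretch. Capitals mark GGGAATTTCCC, which matches the NF-kB consensus and is the longest run of letters that the 3 sequences share in the 250 bases before the start, and ATAAAAG, a form of the TATA box.
Cxcl1: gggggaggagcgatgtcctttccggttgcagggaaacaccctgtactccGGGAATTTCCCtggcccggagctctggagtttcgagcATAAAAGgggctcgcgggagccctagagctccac
Cxcl2: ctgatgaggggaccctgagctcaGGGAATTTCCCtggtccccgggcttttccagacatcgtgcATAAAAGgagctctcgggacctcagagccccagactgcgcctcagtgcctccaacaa
Cxcl3: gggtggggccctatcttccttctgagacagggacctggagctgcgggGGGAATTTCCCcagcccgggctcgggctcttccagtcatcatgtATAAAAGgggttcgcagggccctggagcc

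GGGAATTTCCC began 71 bases before the RefSeq start in Cxcl1, 97 in Cxcl2 and 73 in Cxcl3. Counted to the GENCODE start, the distance in Cxcl2 is shorter. Searched on both strands in windows from 250 bases before to 50 after the start, GGGAATTTCCC was found in 14 of 32851 promoters (0.0426%). The looser NF-kB consensus, which overlaps it, was found in 4.51%. ATAAAAG began 34, 57 and 29 bases before the RefSeq start of the same genes and was found in 5.42% of promoters. The AP-1 letters TGANTCA, found in 7.81% of promoters, were in none of the 4 windows, and the Pf4 window held none of the searched letters. The 2 motifs in capitals do not overlap each other, and both were chosen from these promoters, so the shares are a description.

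The same 3 transcripts carry AU-rich letters after the stop codon, the kind of sequence that Zfp36 and related proteins bind to shorten the life of an mRNA. ATTTA occurred 7 times in Cxcl1, 11 times in Cxcl2, 5 times in Cxcl3 and Cxcl5, 2 times in Cxcl16 and once in Pf4, overlapping copies counted, where 21.4% of 9800 tested genes with such sequence held 5 or more. The longer TTATTTATT, which contains ATTTA and was found in 7.74% of these genes, occurred 2 times in Cxcl1, 4 times in Cxcl2 and 1 time in Cxcl3, and in none of the other 3. The stretch of 30 bases with the most copies in each is shown with ATTTA in capitals, from chr5:90892602-90892631, chr5:90905327-90905356 and chr5:90787629-90787658 (GRCm38, plus strand).
Cxcl1: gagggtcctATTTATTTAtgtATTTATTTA
Cxcl2: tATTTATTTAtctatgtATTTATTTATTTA
Cxcl3: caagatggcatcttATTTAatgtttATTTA

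Levels are given in FPKM, fragments scaled to the transcript's length and to the size of the library, which allows levels of different genes to be set side by side. Summed over genes, FPKM came to 452511 to 489710 in untreated libraries and 713307 to 849323 after LPS. These sums do not show whether the deposited values carry a factor for each library. Judged from the steps between low values, 1 fragment in 1 kilobase was worth 0.022 to 0.027 FPKM in untreated cells and 0.0315 to 0.0478 FPKM after LPS. Between replicates, Pearson's r across genes was 0.996 to 0.998, and no library stood apart. Fold changes are on the log2(FPKM + 1) scale from limma with a standard error (SE) and a Benjamini-Hochberg adjusted p over the 10581 genes that reached 1 FPKM in at least 3 libraries. On this scale the change of a gene that is low in one group is understated. A gene is called when it changed more than 2-fold with p under 0.05 and FDR under 0.1. Of the 6 genes, 5 passed the filter on low values, and Cxcl5 did not.

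A small p alone does not set a gene apart here. At an FDR under 0.05 with no regard to the size of the change, 32.7% of all genes tested were higher and 42.0% lower in Pim1-/- than in WT cells without treatment, and 35.7% were higher and 41.7% lower after LPS. LPS moved 44.9% up and 44.5% down in WT cells at that FDR, and 42.0% up and 42.6% down in Pim1-/- cells, and the difference in LPS response was positive for 29.6% and negative for 33.3%. By this rule 3, 4, 5, 5 and 5 of the 5 chemokines tested passed in these comparisons, which is why size, overlap and single values are given for each.

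Pim1 itself was lower in Pim1-/- cells but not absent. In untreated cells it was at 25.0, 21.5 and 22.3 FPKM in WT and 8.70, 8.00 and 9.51 FPKM in Pim1-/- libraries. After LPS it was at 665, 630.2 and 641 FPKM in WT against 216, 205 and 236 FPKM in Pim1-/- libraries, a log2 fold change of -1.56 (SE 0.07, limma adjusted p = 9.1e-12). The files give 1 value per gene, so the reads of the deleted exons could not be separated from those of the rest.

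The macrophage identity of the cells was checked with 11 markers, all of them present. Their summed level was 30121 to 32232 FPKM in untreated WT and 15250.1 to 16099.5 FPKM in untreated Pim1-/- cells. After LPS it was 33936 to 34434 FPKM against 16801 to 18705 FPKM. Most of the sum was Lyz2, with a mean of 26301.5 FPKM in WT against 13296.8 FPKM in Pim1-/- cells without treatment. All 11 had a negative log2 change in Pim1-/- cells in both conditions, 6 were called lower without treatment and 5 after LPS, beside 3.37% and 5.15% of all genes tested, and Cd14 was at -0.06 without treatment (limma adjusted p = 0.22). Of 12 genes of cell division, 12 were called higher in Pim1-/- cells without treatment and 11 after LPS, beside 4.4% and 3.51% of all genes tested, with Mki67 at -0.12 after LPS and not called. Their sums were 28.7 to 35.2 FPKM in WT against 483 to 495 FPKM in Pim1-/- cells without treatment, and 39.7 to 42.3 FPKM against 199 to 214 FPKM after LPS. The part of these differences in the results on the chemokines was not tested, and in such bulk RNA fewer cells of a type and less RNA per cell cannot be told apart.

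After LPS, the mRNAs of Cxcl1, Cxcl2 and Cxcl3 were all higher in Pim1-/- than in WT BMDMs, by 6.60-fold, 2.53-fold and 4.35-fold in mean FPKM. Cxcl5 was lower, Cxcl16 did not pass the test, and Pf4 was 1.72-fold higher. Of the 5 genes tested, 3 were called, all higher, where 3.51% of all genes tested were called higher and 5.15% lower. Groups did not overlap for Cxcl1, Cxcl2, Cxcl3 and Pf4, all with Pim1-/- above WT, a pattern that 35.6% of all genes tested shared.

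**Figure D1:**
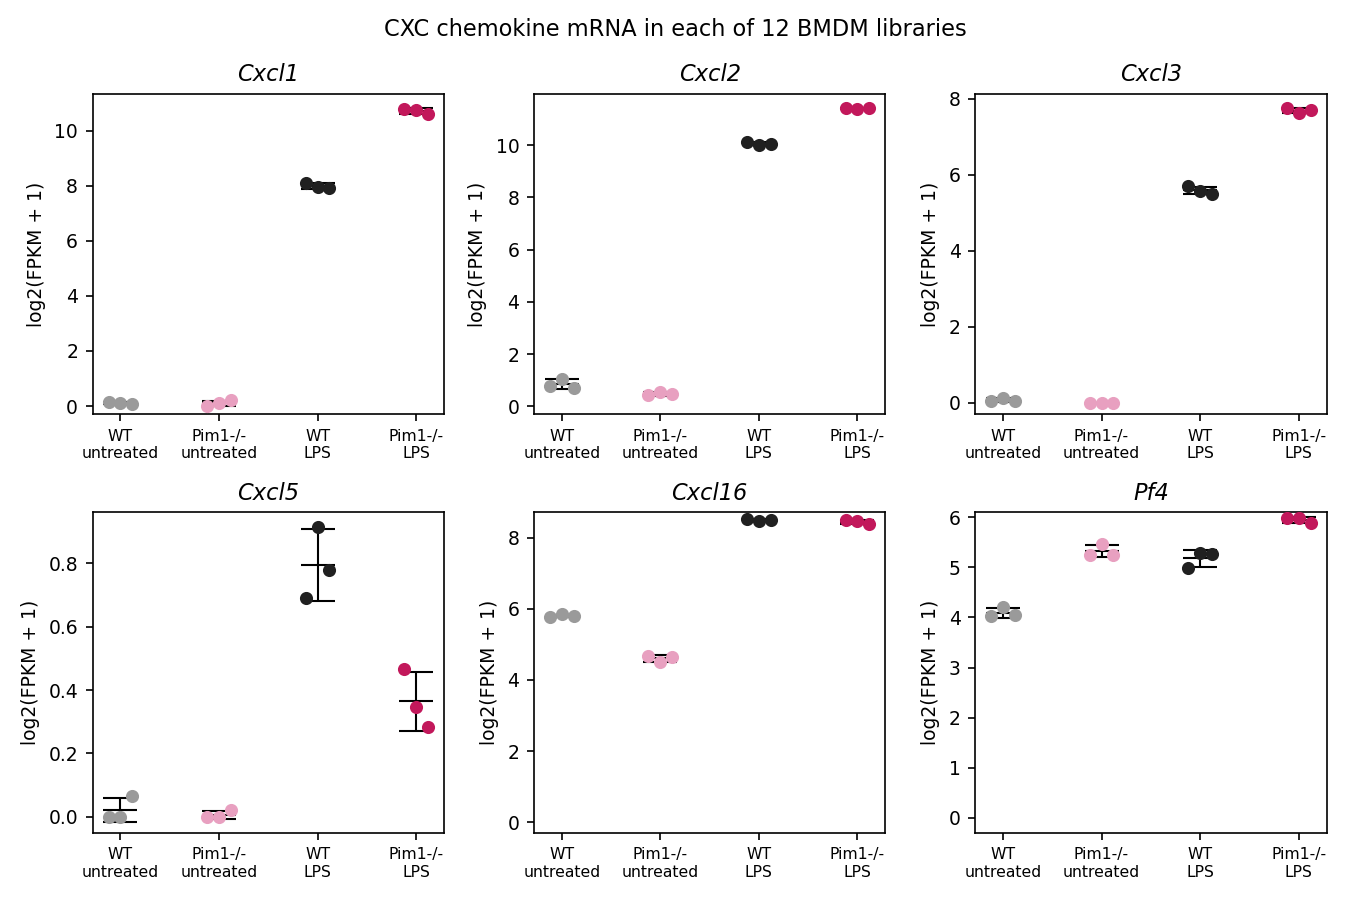
Level of each gene as log2(FPKM + 1), with a vertical scale of its own per panel, in untreated and LPS-treated WT and Pim1-/- BMDMs. Points are the 3 libraries of a group and bars the mean ± SD; after LPS the Pim1-/- points sit above the WT points for Cxcl1, Cxcl2, Cxcl3 and Pf4, below them for Cxcl5, and overlap them for Cxcl16.

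Cxcl1, the mouse KC chemokine, showed the largest genotype difference of the 6. After LPS it was at 273, 249.6 and 239 FPKM in WT libraries and at 1772, 1707 and 1542 FPKM in Pim1-/- libraries. The lowest Pim1-/- library was far above the highest WT library, and the spread within each genotype was small, with a coefficient of variation of 6.90% for WT and 7.09% for Pim1-/- cells. The means were 254 ± 17.5 and 1674 ± 119 FPKM (SD, n = 3), and the log2 fold change was 2.72 (SE 0.06, limma adjusted p = 1.7e-14). Ranked by mean FPKM among all genes, Cxcl1 was the 520th in LPS-treated WT and the 63rd in LPS-treated Pim1-/- cells. Without treatment it was near 0 in both genotypes, at 0.105, 0.0658 and 0.0600 FPKM in WT and 0, 0.0658 and 0.149 FPKM in Pim1-/- libraries, or an estimated 0 to 5 fragments per library. The untreated groups overlapped, and their difference of -0.01 on the log2 scale (SE 0.06, limma adjusted p = 0.91) was not detectable at this depth. From the highest, the order of the groups was thus LPS-treated Pim1-/-, LPS-treated WT, and the untreated groups, which did not differ beyond their spread.

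Cxcl2 (MIP-2) was the most abundant of the ELR chemokines in every group. After LPS it reached 1117, 1032 and 1060.3 FPKM in WT against 2718, 2664 and 2731 FPKM in Pim1-/- libraries. The Pim1-/- values lay within a coefficient of variation of 1.32%, and the genotypes did not overlap. The log2 fold change was 1.34 (SE 0.07, limma adjusted p = 1.4e-10), and the gene moved from the 138th to the 29th place among all genes. Untreated cells showed the opposite order, with 0.714, 1.09 and 0.637 FPKM in WT against 0.343, 0.475 and 0.381 FPKM in Pim1-/- libraries. These groups did not overlap either, a pattern shared by 44.2% of genes tested in the direction of lower values. The means were 0.814 and 0.400 FPKM. The change of -0.37 (SE 0.07, limma adjusted p = 0.00024) was under 2-fold on the scale of log2(FPKM + 1), which understates changes of low levels, and was not called. It was -0.85 with 0.1 FPKM added in place of 1, also not called, and it rested on an estimated 14.3 to 39.8 fragments per library.

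Cxcl3 was the lowest of the 3 induced ELR chemokines. After LPS it was at 50.7, 46.1 and 44.3 FPKM in WT against 213, 196 and 206 FPKM in Pim1-/- libraries. No library overlapped with the other genotype, and the log2 fold change was 2.10 (SE 0.05, limma adjusted p = 4.5e-14). Untreated WT libraries held 0.0321, 0.0904 and 0.0275 FPKM, an estimated 1 to 3 fragments each, and all 3 untreated Pim1-/- libraries were listed at 0. The untreated difference was -0.07 (SE 0.05, limma adjusted p = 0.26), a value that depends on the 1 FPKM added before the logarithm. With 0.1 FPKM added it was -0.56 (limma adjusted p = 0.00066), also not called. The untreated groups did not overlap, as for 44.2% of genes tested in the direction of lower values. No fold is given against a group at 0. Reads can be shared between these paralogs. Of the stretches of 50 bases in the Cxcl3 transcript, 6.31% also occur in Cxcl2, and of those in Cxcl2, 5.76% occur in Cxcl3, while the Cxcl1 transcript shares none with any other gene. After LPS, Cxcl2 was far more abundant than Cxcl3, with means of 1070 against 47.0 FPKM in WT cells. In Pim1-/- cells the means were 2704 and 205 FPKM. The part of shared reads in the Cxcl3 level, and in its ratio to Cxcl2, was not tested.

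The mixture of the ELR chemokines also differed, a comparison made within each library and therefore free of any factor between libraries. In LPS-treated WT cells, Cxcl2 gave 78.0% ± 0.758 of the summed FPKM of the 4 ELR genes, Cxcl1 18.5% ± 0.642 and Cxcl3 3.43% ± 0.117 (SD, n = 3). In LPS-treated Pim1-/- cells, Cxcl2 gave 59.0% ± 1.71, Cxcl1 36.5% ± 1.80 and Cxcl3 4.47% ± 0.163. Every Pim1-/- library had a higher share of Cxcl1 (34.4% to 37.7%) than every WT library (17.8% to 18.9%). The ratio of Cxcl1 to Cxcl2 was 0.244, 0.242 and 0.225 in WT and 0.652, 0.641 and 0.565 in Pim1-/- libraries, 2.61 times higher on average. The ratio of Cxcl3 to Cxcl2 was 1.72 times higher in Pim1-/- cells, and that of Cxcl3 to Cxcl1 was lower, at 0.123 against 0.185. For each of these ratios the two-sided exact permutation test gave p = 0.1, the smallest p that 3 libraries against 3 allow. The summed level was 1371 ± 61.2 FPKM in WT against 4583 ± 113 FPKM in Pim1-/- cells (SD, n = 3), 3.34-fold higher.

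**Figure D2:**
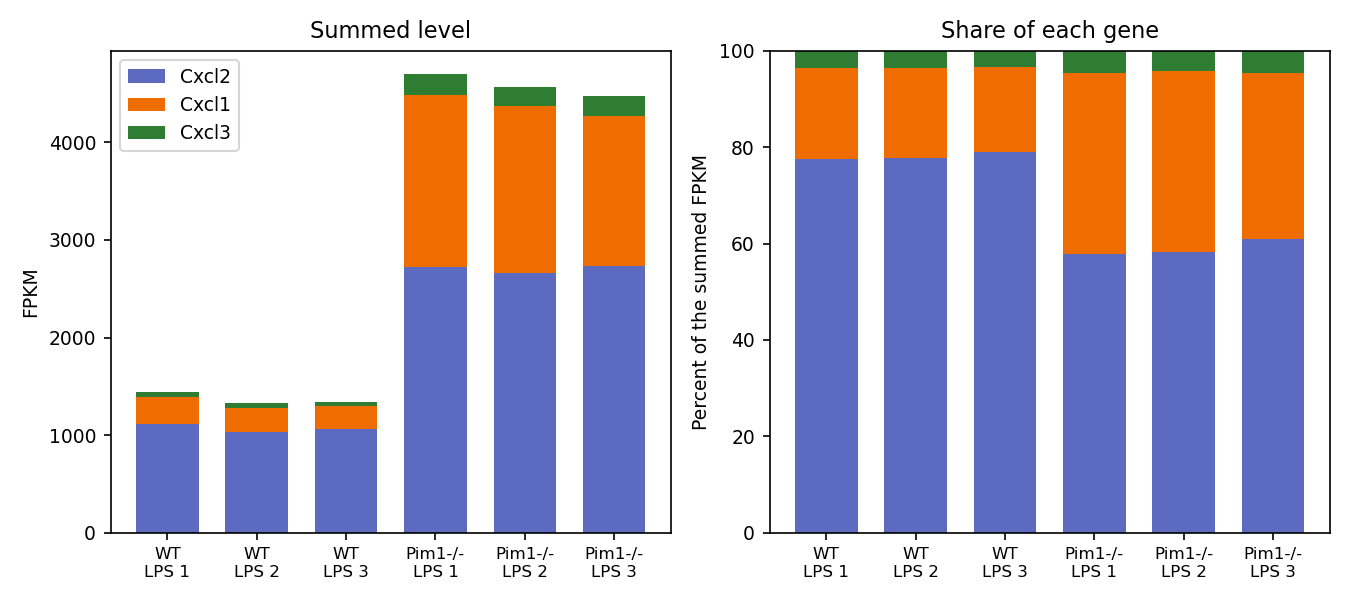
FPKM of Cxcl1, Cxcl2 and Cxcl3 in each LPS-treated library, stacked as a level (left) and as a percent of the summed ELR chemokine FPKM (right). The 3 Pim1-/- libraries reach 4479 to 4703 FPKM and the 3 WT libraries 1329 to 1442 FPKM, and the Cxcl1 share is 34.4% to 37.7% against 17.8% to 18.9%.

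Cxcl5, the ELR chemokine best known from epithelial cells, stayed under 1 FPKM in all 12 libraries. After LPS it was at 0.614, 0.885 and 0.716 FPKM in WT and 0.381, 0.270 and 0.216 FPKM in Pim1-/- libraries, an estimated 19.6 to 27.2 and 8.4 to 16.9 fragments. The genotypes did not overlap, with the Pim1-/- mean at 0.392 times that of WT, opposite to the order seen for Cxcl1, Cxcl2 and Cxcl3. Of the genes tested, 41.8% were lower in Pim1-/- cells without overlap. The two-sided exact permutation test gave p = 0.1, the smallest possible. With no filter on low values, limma gave a log2 fold change of -0.43 (SE 0.06, adjusted p = 5.9e-05 over 16410 genes). Without treatment, 4 of the 6 libraries were listed at 0 and the highest was at 0.0466 FPKM. The neighbours of these genes in the cluster were also near 0, with Ppbp at 0.139 FPKM or less and Cxcl15 at 0.0204 FPKM or less in any library.

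Cxcl16 was lower in Pim1-/- cells before LPS, and after LPS the genotypes could not be told apart by the test. Untreated WT libraries were at 54.1, 56.4 and 55.0 FPKM and untreated Pim1-/- libraries at 24.5, 21.7 and 24.0 FPKM. The groups were far apart, with WT 2.36-fold higher in mean FPKM, and the log2 fold change of -1.21 (SE 0.05, limma adjusted p = 3.2e-12) was called. After LPS the values were 367, 354 and 360.1 FPKM in WT against 359, 352 and 333 FPKM in Pim1-/- libraries, and the genotypes overlapped. The log2 fold change was -0.05 (95% interval -0.15 to 0.05, limma adjusted p = 0.32), and it became 0.22 (limma adjusted p = 0.00059) with quantile normalization, which gives every library the same distribution of values. The means were 361 ± 6.42 and 348 ± 13.3 FPKM (SD, n = 3). Among the 5 genes tested without treatment, Cxcl16 was called lower and Pf4 higher, where 3.37% of all genes tested were called lower and 4.4% higher.

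Pf4 was higher in Pim1-/- cells with and without LPS. Untreated WT libraries held 15.3, 17.5 and 15.5 FPKM and untreated Pim1-/- libraries 37.2, 43.1 and 37.0 FPKM, 2.43-fold higher in mean FPKM. These groups did not overlap, as for 34.2% of genes tested in the direction of higher values. The log2 fold change of 1.23 (SE 0.08, limma adjusted p = 1.5e-09) was called. After LPS the levels were 30.7, 37.9 and 37.6 FPKM in WT and 62.1, 62.2 and 58.0 FPKM in Pim1-/- libraries, again without overlap. That change of 0.77 (SE 0.08, limma adjusted p = 3e-07) was under 2-fold and was not called. Ordered by mean, untreated WT cells were lowest, LPS-treated WT (35.4 ± 4.06 FPKM) and untreated Pim1-/- cells (39.1 ± 3.48 FPKM) were neighbours whose libraries overlapped, and LPS-treated Pim1-/- cells (60.8 ± 2.40 FPKM; SD, n = 3) were highest.

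Markers of platelets and their precursors were examined beside Pf4. Of 12 such genes, 10 stayed under 1 FPKM in all libraries, among them the platelet chemokine Ppbp. The sum of the 12 was 16.2 to 18.7 FPKM in WT and 11.6 to 14.1 FPKM in Pim1-/- cells without treatment, and 10.3 to 10.5 against 9.62 to 11.0 FPKM after LPS. Most of it was Vwf, which reached 16.3 FPKM and is also a gene of endothelial cells. Vwf was at -0.40 in Pim1-/- against WT cells without treatment (SE 0.07, limma adjusted p = 0.00015) and at -0.03 after LPS (limma adjusted p = 0.67), under 2-fold in both. The other gene tested was Treml1, at -0.38 and -0.05, and the part of these markers in the Pf4 difference was not tested.

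LPS raised all 5 tested chemokines in WT cells. The log2 fold changes were 7.88 for Cxcl1 (SE 0.06, limma adjusted p = 2.5e-21), 9.21 for Cxcl2 (SE 0.07, 1.3e-21), 5.51 for Cxcl3 (SE 0.05, 2.2e-20), 2.69 for Cxcl16 (SE 0.05, 1.7e-17) and 1.09 for Pf4 (SE 0.08, 1.8e-09), and all 5 were called. In Pim1-/- cells they were 10.61 for Cxcl1, 10.92 for Cxcl2, 7.68 for Cxcl3 and 3.84 for Cxcl16, all called, and 0.63 for Pf4 (SE 0.08, limma adjusted p = 2e-06), which was under 2-fold. Among all genes tested, LPS led to a call of higher for 20.1% and of lower for 14.7% in WT cells, and for 14.6% and 10.4% in Pim1-/- cells. Cxcl1 and Cxcl3 reached 1 FPKM in the 6 LPS-treated libraries and Cxcl2 in these and 1 other, so these 3 entered the test through the condition in which they were high and their LPS response is given as a description. With quantile normalization the median change of all genes moved to -0.17 for WT and to -0.18 for Pim1-/- cells, and the genes called in WT cells went from 2130 higher and 1556 lower to 1654 higher and 1824 lower. The 4 chemokines with the highest responses stayed called, while Pf4 went to 0.62 for WT and to 0.04 for Pim1-/- cells. The Cxcl16 response went to 1.7 for WT and to 3.3 for Pim1-/- cells.

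The response to LPS itself differed between the genotypes. The difference, taken as the log2 change in Pim1-/- cells minus that in WT cells, was 2.73 for Cxcl1 (SE 0.09, limma adjusted p = 4.6e-12), 1.70 for Cxcl2 (SE 0.10, 1.6e-09), 2.17 for Cxcl3 (SE 0.08, 7.8e-12) and 1.15 for Cxcl16 (SE 0.07, 1.2e-09). All 4 were called, where 2.24% of genes tested were called in this direction and 4.43% in the other. By size the difference of Cxcl1 was the 4th highest of 10581 genes, that of Cxcl3 the 14th and that of Cxcl2 the 37th. For Cxcl1 and Cxcl3 the difference arose from the LPS-treated cells, since the untreated levels were near 0 in both genotypes. Their differences thus nearly repeat the genotype changes after LPS, 2.72 and 2.10, and are not a separate result. Cxcl1, Cxcl2 and Cxcl3 entered the test through the LPS-treated libraries, so their calls and places in this comparison are a description. For Cxcl16 it arose from the lower untreated level in Pim1-/- cells, from which LPS brought the mRNA up 14.9-fold in mean FPKM, against 6.54-fold in WT cells. Pf4 had a difference of -0.46 (SE 0.11, limma adjusted p = 0.0022) and was not called. The comparisons share libraries, so they are not independent of each other.

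**Figure D3:**
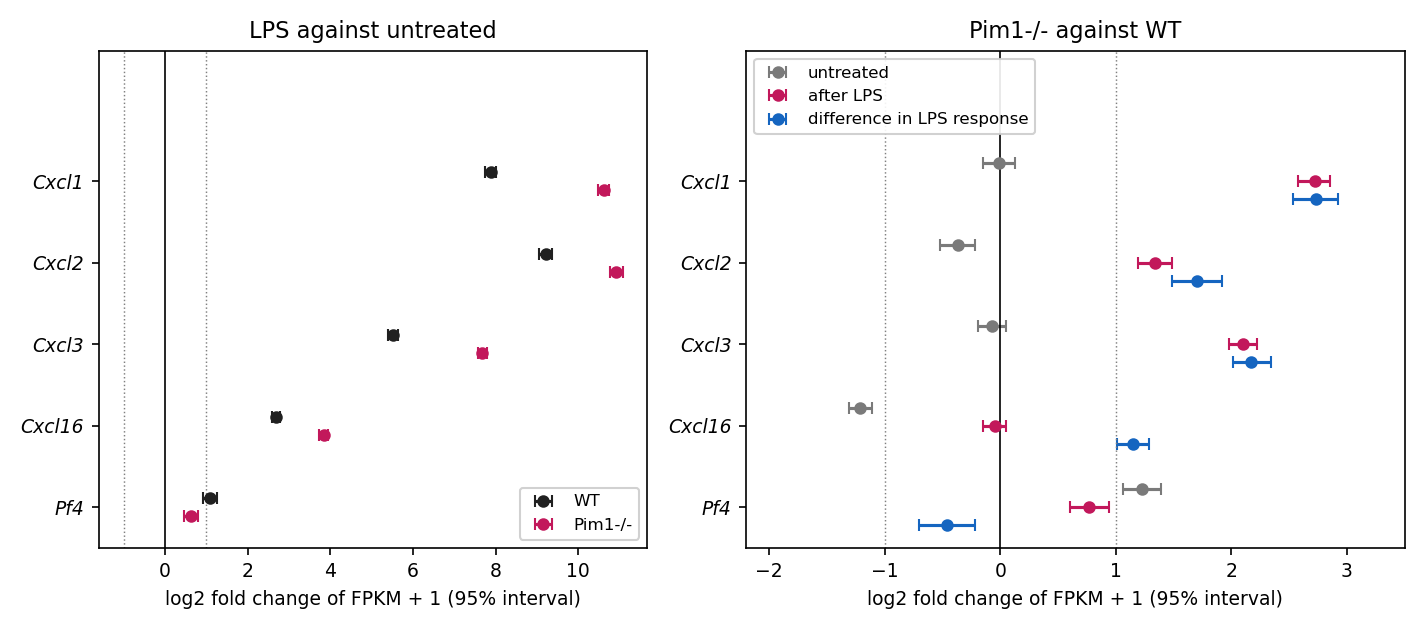
Log2 fold changes of FPKM + 1 with 95% intervals from limma for the 5 genes that passed the filter, after LPS against untreated in each genotype (left) and in Pim1-/- against WT (right; grey, untreated; red, after LPS; blue, difference in LPS response). Dotted lines mark 2-fold; after LPS Cxcl1 (2.72), Cxcl3 (2.10) and Cxcl2 (1.34) lie beyond it, while Cxcl16 passes it only in untreated cells (-1.21) and in the difference (1.15).

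Of 9 further CXC chemokines, 4 were tested, and after LPS those that were called went the other way. Cxcl9 (-2.09, SE 0.04, limma adjusted p = 6.3e-15) and Cxcl11 (-1.26, SE 0.05, 5e-12), ligands of Cxcr3 that attract T cells, were the 2 called. Both were lower in Pim1-/- cells, beside 5.15% of all genes tested that were called lower. Cxcl10, which shares this receptor, was at 11630.5 ± 291 FPKM in WT against 9897 ± 143 FPKM in Pim1-/- cells, a change of -0.23 that was not called. Without treatment Cxcl10 was called lower (-2.07, SE 0.05, limma adjusted p = 5.5e-15), and its difference in LPS response was called in the same direction as that of Cxcl1 (1.84, SE 0.07, limma adjusted p = 7.5e-12). Cxcl14 was at 0.77 and was not called.

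The receptors of the neutrophil attractants were barely present in these cells, with mean levels of Cxcr2 of 0.0371 to 0.0899 FPKM and of Cxcr1 of 0 to 0.0499 FPKM over the 4 groups. Cxcr6, the receptor of Cxcl16, had means of 0.0901 FPKM or less. Of 10 CXC and atypical chemokine receptors, 2 were tested, and Cxcr4, the receptor of Cxcl12, was called higher after LPS in Pim1-/- cells (1.29, SE 0.09, limma adjusted p = 2.1e-09). Its mean was 1.39 ± 0.309 FPKM in WT against 4.83 ± 0.640 FPKM in Pim1-/- cells (SD, n = 3), down from 139 and 92.0 FPKM without treatment.

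Among 14 tested genes of neutrophil recruitment other than CXC chemokines, 1 was called higher and 2 lower after LPS, beside 3.51% and 5.15% of all genes tested, and the list median was 0.04 on the log2 scale beside -0.03 over all genes. The gene called higher was Csf2, the growth factor GM-CSF, at 1.31 ± 0.566 FPKM in WT against 21.5 ± 1.69 FPKM in Pim1-/- cells (3.31, SE 0.12, limma adjusted p = 1.7e-12). Those called lower were the complement gene C3 (-1.26) and the pentraxin Ptx3 (-1.0). Tnf (0.08, limma adjusted p = 0.14) and Il6 (0.08, limma adjusted p = 0.14) did not pass the test. LPS raised both in WT cells, by 9.26 and 10.31 on this scale. Il1b was at -0.94, under 2-fold. The neutrophil attractants of the CC family in the list, Ccl3, Ccl4 and Ccl9, were at 0.26, -0.01 and -0.24.

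Of 9 tested proteases that cut chemokines, 1 was called higher and 2 lower after LPS, beside the same 3.51% and 5.15% of all genes. Mmp12, a macrophage elastase, was called higher (2.01, SE 0.07, limma adjusted p = 7.8e-13), and Mmp14 (-2.27) and Mmp13 (-1.65) were called lower. The proteases that release Cxcl16 were not called, with Adam10 at 0.36 and Adam17 at 0.17.

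Of 16 tested genes of the NF-kB route and other inducible transcription factors, 4 were called lower in Pim1-/- cells after LPS, beside 5.15% of all genes tested, and 0 were called higher. These were Bcl3 (-1.45), Jun (-1.33), Fos (-1.12) and Nfkb2 (-1.06). All 16 had a negative change, with a list median of -0.64 beside -0.03 over all genes, and for Rel (-0.08, limma adjusted p = 0.36) it did not pass the test. Without treatment all 16 were negative as well, with a median of -0.59 beside -0.05 over all genes, and 4 were called lower, beside 3.37% of all genes. In the difference in LPS response 9 were positive and 7 negative, and 1, Jun, was called negative, beside 4.43% of all genes tested. Nfkbia, which encodes the inhibitor of NF-kB and is one of its targets, was at 1573 ± 42.5 FPKM in WT against 1059.9 ± 34.0 FPKM in Pim1-/- cells after LPS (SD, n = 3).

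Of 13 genes that act in mRNA decay or its control, 2 were called after LPS, both lower, beside 5.15% of all genes tested, and 3 had a positive change. Dusp1, the phosphatase that turns off p38, was at 167 ± 1.89 FPKM in WT against 22.8 ± 0.188 FPKM in Pim1-/- cells (-2.82, SE 0.07, limma adjusted p = 2.4e-14). Zfp36, which encodes tristetraprolin, a protein that binds AU-rich letters such as those shown for Cxcl1, Cxcl2 and Cxcl3, was at 715 ± 34.1 and 355 ± 34.4 FPKM (-1.01, SE 0.06, limma adjusted p = 1.2e-09; SD, n = 3). Without treatment Zfp36 was also called lower (-1.23), whereas Dusp1 was at 0.54 and was not called. The difference in LPS response was called for 3 genes of the list, beside 2.24% of all genes tested called positive and 4.43% called negative. It was negative for Dusp1 (-3.36, SE 0.10, limma adjusted p = 1.2e-12), and positive for Zfp36l1 (1.54, limma adjusted p = 4.5e-09) and Zfp36l2 (1.53, SE 0.06, limma adjusted p = 1.5e-11), which are relatives of Zfp36. After LPS itself Zfp36l2 was at 7.43 FPKM in WT against 12.2 FPKM in Pim1-/- cells, a change of 0.65 (limma adjusted p = 1.1e-09) that was not called. Whether these levels bear on the chemokine mRNAs was not tested.

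**Figure D4:**
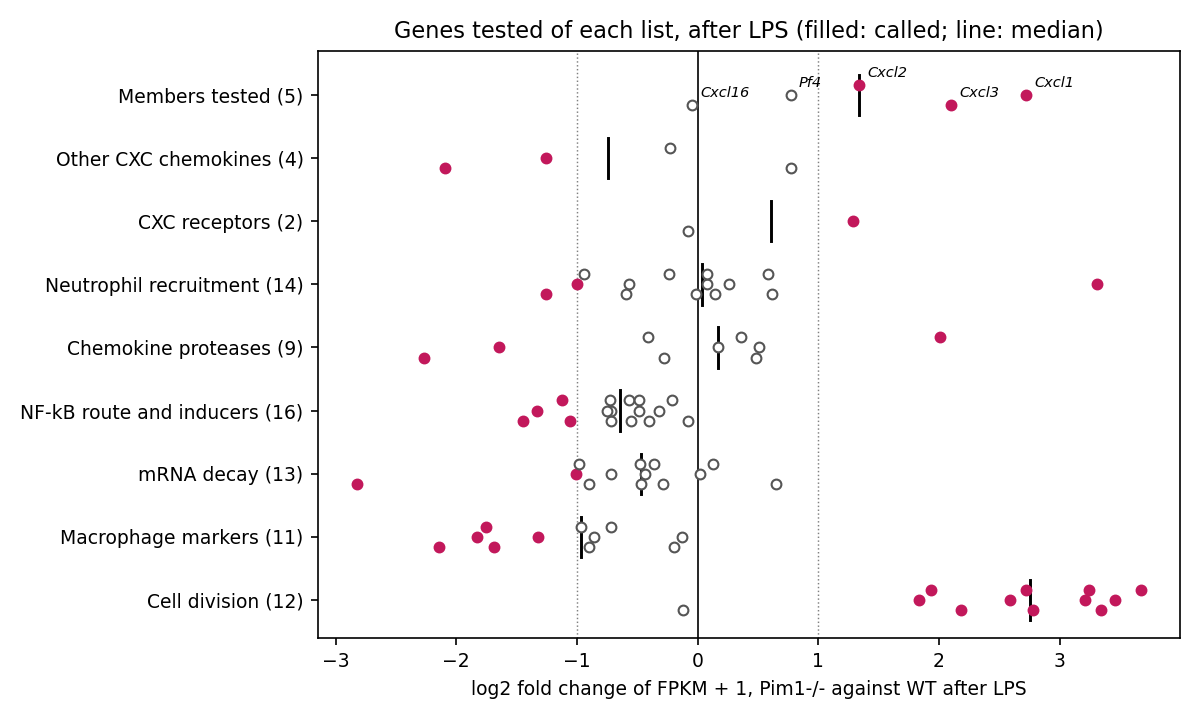
Log2 fold change of FPKM + 1 in Pim1-/- against WT BMDMs after LPS for each tested gene of the lists, with the number of genes in parentheses. Filled points are called genes and black lines list medians. Of the 16 genes of the NF-kB route and other inducible transcription factors, 4 are called lower, among them Jun and Fos (list median -0.64). Cxcl1, Cxcl2 and Cxcl3 lie above 1.

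Markers of other cell types that could make these chemokines were examined beside them. Of 11 neutrophil markers with values, 7 stayed under 1 FPKM, with Retnlg at 0 in all libraries, and the sum was 119 to 122 FPKM in WT and 24.3 to 27.2 FPKM in Pim1-/- cells after LPS. Its highest gene was Lcn2, which LPS also induces in macrophages. Of 4 tested markers, 3 were called lower in Pim1-/- cells after LPS, beside 5.15% of all genes tested. These were Csf3r (-2.72), Lcn2 (-2.12) and S100a9 (-1.17), while S100a8 was at -0.02 (limma adjusted p = 0.91). The part of these markers in the chemokine levels was not tested. Sums of 10 stromal markers were 24.9 to 26.6 FPKM in WT and 22.2 to 23.0 FPKM in Pim1-/- cells after LPS, and those of 8 endothelial markers 25.8 to 27.3 against 15.4 to 17.4 FPKM. Sums of 8 dendritic cell markers were 20.2 to 20.6 against 3.37 to 3.80 FPKM. The highest gene was Lox in the stromal, Kdr in the endothelial and Clec10a in the dendritic list, and it weighs heavily on each sum. After LPS their means in WT against Pim1-/- cells were 14.0 and 18.7 FPKM for Lox, 26.4 and 16.2 FPKM for Kdr, and 17.8 and 1.61 FPKM for Clec10a. Of 4 stromal markers tested, Lox had a positive log2 change after LPS and 3 had a negative one. Of 8 lymphoid markers, 4 were at 0 in all libraries and the other 4 under 1 FPKM.

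Genes whose pattern over the 12 libraries was most like each chemokine were looked for. The measure was the root mean square difference of log2(FPKM + 1) values, each gene centred on its own mean. They were picked from the same libraries, so a like direction is partly built in and their tests are given as a description. For Cxcl1 they were Cxcl2 (0.658), Ccl7 (0.731) and Ccl2 (0.918), the last a pair of CC chemokines that attract monocytes. Both were also called higher after LPS in Pim1-/- cells, Ccl7 by 1.23 (SE 0.09, limma adjusted p = 3.7e-09) and Ccl2 by 1.5 (SE 0.05, 1.5e-12), but Ccl2 was already called higher without treatment, by 1.82. For Cxcl2 the nearest were the cytokine genes Il12b (0.427), Il6 (0.495) and Tnf (0.612), which were at 0.26, 0.08 and 0.08 in Pim1-/- against WT cells after LPS and were not called. For Cxcl3 the nearest was Ccl17 (0.287), a CC chemokine that attracts T cells, with a difference in LPS response of 1.65 (SE 0.08, limma adjusted p = 1.4e-10), followed by Ccrl2 (0.695) and Clec4e (0.763).

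Cxcl16 was most like Tnfrsf1b (0.190), Rnf19b (0.227) and Cybb (0.229). Tnfrsf1b, a TNF receptor, and Cybb, a subunit of the NADPH oxidase, were also called lower without treatment in Pim1-/- cells, each by -1.30. After LPS they stayed lower without being called, at -0.53 and -0.39, while Cxcl16 was at -0.05. Pf4 was most like the amino acid transporter gene Slc7a1 (0.114), Lsm8 (0.128), a factor of the U6 snRNA complex, and A630033H20Rik (0.128). Slc7a1 was called higher without treatment (1.23, SE 0.05, limma adjusted p = 1.9e-11) and was at 0.91 after LPS.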

How the data were processed

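RNA was taken from untreated and LPS-treated WT and Pim1-/- BMDMs, 3 libraries in each of 4 groups, and groups came from the sample labels. The authors prepared stranded mRNA libraries and sequenced them on an Illumina NovaSeq. The submitters' processing notes list bcl2fastq 2.20.0.422, cutadapt 1.18, TopHat2 2.0.13, Cuffdiff 2.2.1 and mm10. The methods text names rat rn5 as the genome, but of the 23997 names in the files 94.6% are mouse symbols in GENCODE M21. The deposited columns carry no unit, hold no counts and were read as FPKM, given the use of Cuffdiff and the decimals and sums of the values. How the libraries were scaled and which annotation was used is not given in the sources used here.

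Deposited FPKM values were not rescaled. A gene was kept when 3 or more libraries reached 1 FPKM, and limma 3.58.1 under R 4.3.3 fitted 4 group means to log2(FPKM + 1) with a mean-variance trend. The thresholds (over 2-fold, p under 0.05, Benjamini-Hochberg FDR under 0.1) are those of the methods, applied in both directions. Ratios within a library were compared with exact two-sided permutation tests. The other software was Python 3.11.15 with pandas 2.3.3, numpy 2.4.6, scipy 1.17.1 and matplotlib 3.10.9. The test was tried on made-up values for 10581 genes, with 200 of them altered 3-fold in LPS-treated Pim1-/- against WT cells. Of these, limma called 199 in the right direction, and it called 0 of the rest. The made-up noise was independent between libraries, no low gene was altered, and the remaining genes had no difference. The trial therefore does not cover low genes or libraries that deviate together, and it shows only that the code runs as intended.

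The depth was estimated from FPKM values of low genes, of which 75.6% to 83.9% per library lay within 0.1 of a whole number of fragments. Estimated fragments are thus approximate. Replicate numbers recur across groups. In some groups, libraries with the same number deviated from their group means together. The correlation over 5439 genes was 0.270 to 0.447 for the untreated genotypes and 0.418 to 0.674 for the Pim1-/- groups with and without LPS. It was 0.00883 to 0.338 for the LPS-treated genotypes and -0.0240 to 0.170 for the WT groups. For untreated WT with LPS-treated Pim1-/- cells it was 0.0342 to 0.468. For untreated Pim1-/- with LPS-treated WT cells it was -0.0885 to 0.421. This relation comes from the values, not from the labels, and whether the libraries are paired samples is not known.

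The 6 genes, the pathway lists and the marker lists were chosen with earlier results of these data known. The named genes are the 6 chemokines, Pim1, the 3 genes most like each chemokine by the root mean square measure, and of each list at most the 4 called genes with the largest change after LPS. Others, such as Tnf, Il6, Adam10 and Nfkbia, were named as background or after their values were seen. The alternatives were a pseudocount of 0.1, no filter on low values or one of 5 FPKM, scaling by median ratios or by quantiles, a fit restricted to the groups of a comparison, the replicate block, limma without a trend, FDR under 0.05 with no regard to fold, and leaving out each library.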

Additional observations from a re-analysis of the deposited data

Results flagged for a closer look

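The response to LPS differed between the genotypes by the interaction term of the limma fit, over 2-fold, for 4 chemokines. The log2 difference (Pim1-/- minus WT) was 2.73 for Cxcl1, 1.70 for Cxcl2, 2.17 for Cxcl3 and 1.15 for Cxcl16. For Cxcl16 the LPS-treated groups overlapped and the untreated groups did not, whereas for Cxcl1 the reverse held. Over the alternatives run, the difference ranged from 2.68 to 2.98 for Cxcl1, from 1.60 to 2.19 for Cxcl2, from 2.13 to 2.68 for Cxcl3 and from 1.10 to 1.60 for Cxcl16.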

How the results depend on the processing

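The log2 fold changes of the 5 tested chemokines in the 5 comparisons (25 values) were recomputed 495 times. Of these, 490 kept their direction and their side of the thresholds, but in many of them the estimate could not move. The filters, the restricted fit, the replicate block and the fit without a trend leave it as it is. So does leaving out a library of a group outside the comparison. With quantile normalization the untreated genotype difference of Cxcl1 turned from -0.01 to 0.01, that of Cxcl16 after LPS turned from -0.05 to 0.22, and the response of Pf4 to LPS in WT cells went to 0.62, under 2-fold. Leaving out 1 library at a time moved the untreated difference of Cxcl1 between -0.06 and 0.04, with 0.01 without the first WT and 0.04 without the first Pim1-/- untreated library. The number of chemokines called stayed at 2 without treatment, 3 after LPS, 5 for LPS in WT cells, 4 for LPS in Pim1-/- cells and 4 for the difference, with any library left out and with the replicate block, which changed no call. Judged by FDR under 0.05 with no regard to fold, the numbers were 3, 4, 5, 5 and 5. The 2.61-fold difference in the ratio of Cxcl1 to Cxcl2 was 2.54 to 2.73 with 1 library left out, an alternative chosen after seeing the data.

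With a pseudocount of 0.1 the LPS response of Cxcl1 was 10.49 instead of 7.88 in WT cells and 13.35 instead of 10.61 in Pim1-/- cells, and that of Cxcl3 was 8.32 instead of 5.51 and 11.00 instead of 7.68. The untreated difference of Cxcl2 was -0.85 instead of -0.37, and that of Cxcl3 was -0.56 instead of -0.07. Over all genes, that pseudocount called 717 instead of 371 genes higher after LPS in Pim1-/- cells, 583 instead of 357 lower without treatment and 510 instead of 237 higher in the difference. With LPS in Pim1-/- cells, 1654 instead of 1103 genes were called lower. The untreated levels of Cxcl1, Cxcl3 and Cxcl5 rest on a few fragments per library, and the unit and the authors' scaling between libraries limit comparisons of levels between treatments.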
